A study of Mus musculus with 20 samples.

Results

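Clone M2 is 1 of 3 mesenchymal clones of mouse breast cancer cells, labelled M1, M2 and M3 and described as stable. It was compared with Py2T LT, Py2T breast cancer cells that had been given TGF-beta 1 (2 ng/ml) over a period of more than 10 days. Both groups carry the strain label MMTV-PyMT, a model in which the mammary tumour virus promoter drives the polyoma middle T oncogene in breast epithelium. M2 is 1 clone, both groups were grown in DMEM with serum and sampled at 0 hours without the inhibitor used elsewhere in the series, and neither is an untreated epithelial culture. The labels name TGF-beta for Py2T cells alone, and both the medium additions of the clones and their parent cells are not given there. The libraries and genes were chosen by rule, which took 4 of the 20 libraries of the series, 2 of M2 and 2 of Py2T LT, from 2 independent experiments. The 4 libraries of the sister clones M1 and M3 served to say what was particular to M2. They also entered the gene filter, the scaling and the spread of the fit behind every test. Of 19311 genes listed, 11717 had at least 1 RPKM (reads per kilobase of gene, scaled to library depth) in at least 2 of these 8 libraries and were tested. By its title the series is about histone deacetylases, Mbd3 and Tet2 in the passage between epithelial and mesenchymal states.

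TGF-beta binds the receptor kinases Tgfbr1 and Tgfbr2, which phosphorylate Smad proteins that switch on target genes such as Ccn2. In mammary epithelium prolonged TGF-beta exposure drives an epithelial-mesenchymal transition, in which cells lose E-cadherin junctions and gain motility, matrix production and mesenchymal filaments. Transcription factors of the Snail, Zeb and Twist families carry out much of that change, and they bind E-box motifs in the promoters of epithelial genes.

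The 8 libraries held an estimated 14.9 to 18.2 M reads each, read from the steps of the low RPKM values. A value of 0 then allows up to 3 reads, which for a gene of 1 kb is 0.182 to 0.188 RPKM in M2 and 0.168 to 0.175 RPKM in Py2T LT, an allowance for counting error only. Replicates of M2 differed by a median of 0.0834 on the log2 scale and those of Py2T LT by 0.110. P-values rest on a spread per gene that M2, Py2T LT, M1 and M3 share, over all 8 libraries. The median difference between replicates was 0.205 in M1 and 0.133 in M3. M2 is 1 clone and Py2T LT 1 cell line, so p-values do not measure the spread between clones or lines. As a check of the labelled cell type, the luminal keratin Krt18 stood at 1185 and 1071 RPKM in M2, against 799 and 779.5 RPKM in Py2T LT. This simple-epithelial keratin was thus abundant in both groups. Of 15 luminal markers 6 were under 1 RPKM in all 4 libraries, among them Krt19, Pgr and Elf5. The 13 haematopoietic markers in the files summed to 1.62 and 1.78 RPKM in M2, against 3.00 and 3.59 RPKM in Py2T LT. The 13 endothelial markers summed to 0.909 and 0.885 RPKM in M2, against 3.81 and 3.67 RPKM in Py2T LT. The 14 pericyte and fibroblast markers summed to 8.06 and 7.29 RPKM in M2, against 17.7 and 17.9 RPKM in Py2T LT. Of the haematopoietic, endothelial and fibroblast markers 12, 11 and 11 were under 1 RPKM in all 4 libraries. Their part in any result was not tested.

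M2 and Py2T LT differed over most of the measured transcriptome, and the largest differences were close to an on and off pattern in both directions. With limma, 6732 of 11717 genes passed an adjusted p of 0.05, which is 57.5% of the genes tested. Of these, 3243 (27.7%) were higher in M2 and 3489 (29.8%) were lower, and the median log2 difference over all tested genes was -0.01. List counts against Py2T LT below are read beside these shares. Log2 differences below are those of RPKM + 0.5 with the fit's standard error, so that they are compressed for genes near 0. In bulk RNA fewer cells that express a gene and less RNA per cell cannot be told apart.

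The largest rise was that of Sod3, the secreted superoxide dismutase. It had 166 and 168 RPKM in M2, against 0.484 and 0.191 RPKM in Py2T LT, a log2 difference of 7.65 ± 0.20 with an adjusted p of 1.9e-08. Brinp3, a gene named for its induction by bone morphogenetic protein and retinoic acid in neural cells, had 63.9 and 86.7 RPKM in M2, against 0.0367 and 0 RPKM in Py2T LT. Foxf1, a forkhead factor of mesenchyme that responds to Hedgehog signalling, had 48.5 and 51.1 RPKM in M2, against 0.240 and 0.253 RPKM in Py2T LT. Both libraries of M2 lay above both of Py2T LT for each of these genes, which the rule for choosing them required. Others of the 12 largest rises were Cyba, a subunit of NADPH oxidase described with the other clones, Inhbb, an activin subunit, Grem1, a secreted antagonist of bone morphogenetic proteins, the cytidine deaminase gene Cda, the calcification inhibitor Mgp and the quinone reductase Nqo1, with log2 differences of 5.57 to 6.13.

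The largest fall was that of Nes, which encodes the intermediate filament nestin. It had 0.0613 and 0.0297 RPKM in M2, against 218 and 185 RPKM in Py2T LT, a log2 difference of -8.56 ± 0.14 with an adjusted p of 4.1e-09. Tfpi2, a secreted inhibitor of serine proteases, had 0 and 0.0402 RPKM in M2, against 139 and 129 RPKM in Py2T LT. These genes were among the abundant messages of Py2T LT and were at or near 0 in M2. Thbd, the thrombin receptor thrombomodulin, Serpinb2, an inhibitor of plasminogen activators, Uchl1, a neuronal deubiquitinase, Col4a1, a basement membrane collagen, and Parvb, an integrin-linked adaptor, were also among the 12 largest falls. Rpl26 belonged to the same group, with 0.576 and 0.446 RPKM in M2, against 178 and 154 RPKM in Py2T LT. Ribosomal protein genes have near-identical processed copies, so where its reads were assigned is uncertain. Of 42 ribosomal protein genes tested, 6 rose, 7 fell and 29 missed the threshold.

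**Figure D1:**
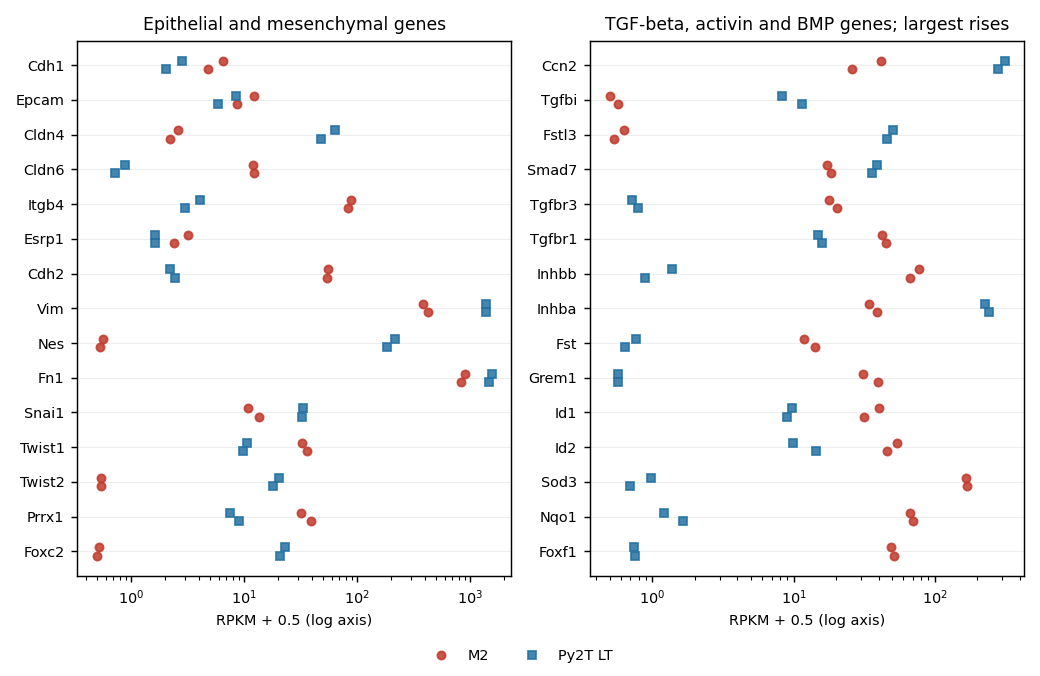
RPKM + 0.5 on a log axis for 30 genes, with 1 point per library, in M2 (circles) and Py2T LT (squares). In M2 Cdh2, Itgb4, Sod3 and Foxf1 lie far above Py2T LT, and Nes, Foxc2 and Fstl3 lie far below it, while the libraries of both groups lie close together for Epcam.

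Epithelial junction genes were on balance higher in M2 than in cells under TGF-beta, but unevenly so. Of 32 tested junction and polarity genes among 40 listed, 18 were higher, 7 lower and 7 did not pass, with a median difference of 0.55. E-cadherin (Cdh1) had 6.01 and 4.27 RPKM in M2, against 2.32 and 1.56 RPKM in Py2T LT, a log2 difference of 1.18 ± 0.20 with an adjusted p of 0.001. Both levels were low, and the M2 libraries lay above both Py2T LT libraries. Itgb4, the beta-4 integrin of hemidesmosomes, had 88.2 and 82.3 RPKM in M2, against 3.58 and 2.54 RPKM in Py2T LT, a log2 difference of 4.58 ± 0.14. Spint1 and Spint2, membrane-bound serine protease inhibitors of epithelia, were higher by 3.32 ± 0.18 and 3.01 ± 0.26 on the log2 scale. Epcam, an epithelial adhesion protein, had 11.9 and 8.23 RPKM in M2, against 7.99 and 5.42 RPKM in Py2T LT, and its log2 difference of 0.52 ± 0.20 had an adjusted p of 0.052 and did not pass. Epcam sat at the threshold, and without M2 replicate 2 or Py2T LT replicate 1 its adjusted p was 0.0193 or 0.0219. It also passed on genes of 5 RPKM or more (0.0459) and with values as deposited (0.0427).

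Claudins, the strand-forming proteins of tight junctions, went in opposite directions. Cldn6, a claudin of embryonic epithelium, had 11.5 and 11.8 RPKM in M2, against 0.386 and 0.223 RPKM in Py2T LT, a log2 difference of 3.91 ± 0.12. Cldn4 had 2.11 and 1.74 RPKM in M2, against 63.8 and 47.8 RPKM in Py2T LT, a log2 difference of -4.56 ± 0.17. The junction genes Jup, F11r and Lamb3 were also lower in M2, with log2 differences of -1.16 ± 0.14, -0.97 ± 0.11 and -2.19 ± 0.11. Cells under TGF-beta thus had more Cldn4 and Lamb3 message than M2, and less Cldn6 and Itgb4 message.

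The levels of Epcam, Cldn6 and Cldn4 differed in unlike ways, so the 250 bases before their annotated starts are shown, from RefSeq on GRCm38.p6, 5′ to 3′ on the gene's strand. Capitals mark the E-box CACCTG or its reverse complement CAGGTG, searched on both strands. Epcam (chr17:87635729-87635978, plus strand) held 2 matches, and Cldn6 (chr17:23679115-23679364, plus strand) and Cldn4 (chr5:134946935-134947184, minus strand) held 1 each.
Epcam: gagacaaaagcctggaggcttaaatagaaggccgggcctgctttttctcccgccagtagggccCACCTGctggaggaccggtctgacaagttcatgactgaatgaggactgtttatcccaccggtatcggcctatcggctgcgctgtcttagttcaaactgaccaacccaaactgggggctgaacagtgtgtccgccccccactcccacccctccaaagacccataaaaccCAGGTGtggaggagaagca
Cldn6: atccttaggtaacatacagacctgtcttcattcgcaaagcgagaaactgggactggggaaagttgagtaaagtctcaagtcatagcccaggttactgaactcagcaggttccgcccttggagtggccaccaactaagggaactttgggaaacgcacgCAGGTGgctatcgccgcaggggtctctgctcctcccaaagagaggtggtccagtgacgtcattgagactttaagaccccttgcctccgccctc
Cldn4: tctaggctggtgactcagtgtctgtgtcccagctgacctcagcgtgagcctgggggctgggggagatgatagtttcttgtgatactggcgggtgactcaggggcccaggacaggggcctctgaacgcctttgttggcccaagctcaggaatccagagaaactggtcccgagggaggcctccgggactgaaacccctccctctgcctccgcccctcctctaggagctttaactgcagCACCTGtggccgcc
Among all 32851 such windows, 17.2% held at least 1 match, and a match is a description of letters only. Each of these windows held a match, while Cldn6 was higher in M2, Cldn4 was lower and Epcam did not pass.

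Regulators of the epithelial state leaned higher in M2. Of 11 tested epithelial transcription and splicing regulators among 21 listed, 8 rose, 1 fell and 2 missed the threshold, with a median of 0.84. Rbm47, an RNA-binding protein, was higher by 2.55 ± 0.20 on the log2 scale. The luminal factor Gata3 had 19.1 and 19.9 RPKM in M2, against 8.60 and 9.25 RPKM in Py2T LT, a log2 difference of 1.05 ± 0.11. Esrp1 and Esrp2, which set epithelial splicing patterns, were higher by 0.74 ± 0.16 and 1.48 ± 0.18 on the log2 scale. Esrp1 had 2.70 and 1.92 RPKM in M2, against 1.13 and 1.14 RPKM in Py2T LT, and the groups did not overlap.

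The EMT transcription factors split, with 8 of 22 tested higher in M2, 10 lower and 4 not passed, and a median of -0.22. Prrx1, a homeobox factor of mesenchyme, had 31.8 and 38.5 RPKM in M2, against 7.10 and 8.55 RPKM in Py2T LT, a log2 difference of 2.07 ± 0.17. Twist1 had 32.4 and 35.7 RPKM in M2, against 10.1 and 9.39 RPKM in Py2T LT, a log2 difference of 1.72 ± 0.12. Its relative Twist2 had 0.0477 and 0.0462 RPKM in M2, against 19.9 and 17.8 RPKM in Py2T LT, a log2 difference of -5.17 ± 0.15. The paralogs Twist1 and Twist2 therefore stood in reversed order in the groups. Snai1, Snai2 and Zeb1, repressors of E-cadherin, were lower in M2, with log2 differences of -1.48 ± 0.20, -1.41 ± 0.20 and -0.98 ± 0.18. Foxc2, a forkhead factor that TGF-beta induces, had 0.0230 and 0 RPKM in M2, against 22.7 and 20.5 RPKM in Py2T LT.

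Mesenchymal adhesion and filament genes also split, with 4 of 13 tested higher, 8 lower and 1 not passed, and a median of -0.55. N-cadherin (Cdh2) had 54.9 and 54.4 RPKM in M2, against 1.74 and 1.94 RPKM in Py2T LT, a log2 difference of 4.53 ± 0.14. Vimentin (Vim) had 388 and 425 RPKM in M2, against 1397 and 1379 RPKM in Py2T LT, a log2 difference of -1.80 ± 0.11. S100a4, a calcium-binding protein of motile cells, had 3554 and 3341 RPKM in M2, against 902 and 1237 RPKM in Py2T LT, a log2 difference of 1.67 ± 0.18. The cadherin and S100a4 messages were thus more abundant in M2 and the vimentin message was more abundant in Py2T LT. The adhesion molecules Alcam and Ncam1 were lower, with log2 differences of -2.88 ± 0.12 and -2.04 ± 0.15. Contractile genes leaned lower, with 13 of 19 tested lower, 1 higher and 5 not passed, and a median of -0.60. Among these Flnc, a filamin, and Zyx, a focal adhesion protein, were lower, with log2 differences of -5.06 ± 0.15 and -1.89 ± 0.13, while the tropomyosin Tpm2 was higher by 4.40 ± 0.15 on the log2 scale.

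Several genes known as TGF-beta targets were far lower in M2. Ccn2, connective tissue growth factor, had 41.2 and 25.3 RPKM in M2, against 312 and 278 RPKM in Py2T LT, a log2 difference of -3.20 ± 0.61 with an adjusted p of 0.0081. Without M2 replicate 2 the Ccn2 difference missed the threshold, with an adjusted p of 0.0517. Fstl3, a secreted antagonist of activin, had 0.128 and 0.0310 RPKM in M2, against 50.5 and 45.2 RPKM in Py2T LT. Tgfbi, a matrix protein named for its induction by TGF-beta, had 0 and 0.0679 RPKM in M2, against 7.73 and 10.9 RPKM in Py2T LT. All 3 genes had both M2 libraries below both Py2T LT libraries, but they were named as called falls, so this adds no support. The share of all tested genes with such a separation is not given here.

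The 250 bases before the starts of Fstl3 and Tgfbi are shown because these genes were at or near 0 in M2. Other genes at or near 0 in M2, such as Nes and Tfpi2, are not shown. Capitals mark CAGAC or its reverse complement GTCTG, the core that Smad3 and Smad4 contact, on both strands; windows are from RefSeq on GRCm38.p6. Fstl3 (chr10:79777024-79777273, plus strand) and Tgfbi (chr13:56609336-56609585, plus strand) held 2 matches each.
Fstl3: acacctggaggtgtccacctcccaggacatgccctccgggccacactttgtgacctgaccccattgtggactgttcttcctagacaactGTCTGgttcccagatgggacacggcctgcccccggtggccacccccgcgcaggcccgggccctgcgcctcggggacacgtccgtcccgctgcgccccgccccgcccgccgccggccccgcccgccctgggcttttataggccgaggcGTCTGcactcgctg
Tgfbi: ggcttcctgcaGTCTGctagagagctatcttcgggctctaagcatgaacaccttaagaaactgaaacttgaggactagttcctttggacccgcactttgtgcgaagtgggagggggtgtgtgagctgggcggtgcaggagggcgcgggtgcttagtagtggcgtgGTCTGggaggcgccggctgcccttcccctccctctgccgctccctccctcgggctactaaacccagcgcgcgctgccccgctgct
The motif was in 42.2% of all 32851 windows, and a match is a description of letters only. The same letters occur, unmarked, in the windows of Epcam, Cldn6 and Cldn4 above. CACCTG likewise occurs, unmarked, in the window of Fstl3. Neither motif is thus particular to the genes in which it is marked.

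The TGF-beta and activin pathway as a list did not lean one way, with 9 of 28 tested genes higher, 9 lower and 10 not passed, and a median of 0.01. Of this list 64.3% were called, against 57.5% of all tested genes. The TGF-beta receptors were higher in M2. Tgfbr3, the co-receptor betaglycan, had 17.3 and 19.9 RPKM in M2, against 0.221 and 0.286 RPKM in Py2T LT, a log2 difference of 4.65 ± 0.17. Tgfbr1 and Tgfbr2 were higher by 1.47 ± 0.14 and 1.35 ± 0.10 on the log2 scale. The ligand Tgfb1 had 16.0 and 15.4 RPKM in M2, against 32.0 and 23.03 RPKM in Py2T LT, and was lower, with a log2 difference of -0.80 ± 0.15. Activin subunits changed places, as Inhbb had 76.3 and 66.7 RPKM in M2, against 0.889 and 0.381 RPKM in Py2T LT, whereas Inhba had 33.7 and 38.2 RPKM in M2, against 228 and 241 RPKM in Py2T LT. Fst, the activin antagonist follistatin, was higher by 4.21 ± 0.15 on the log2 scale where its relative Fstl3 was lower, with a log2 difference of -6.41 ± 0.16.

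BMP genes leaned higher, with 11 of 20 tested higher, 6 lower and 3 not passed, and a median of 0.48. The ligand Bmp4 had 5.93 and 5.59 RPKM in M2, against 0.117 and 0.0560 RPKM in Py2T LT, a log2 difference of 3.41 ± 0.18. Bmp2 and Bmp6 were listed at 0 in both M2 libraries, against 1.26 and 1.41 RPKM for Bmp2 and 5.12 and 3.57 RPKM for Bmp6 in Py2T LT. The Id genes encode inhibitors of helix-loop-helix factors and are direct BMP targets, and Id3 and Id4 were higher by 0.74 ± 0.19 and 2.71 ± 0.17 on the log2 scale. Id3 missed the threshold without Py2T LT replicate 1 (adjusted p = 0.0763). The secreted antagonists Grem1 and Bmper were higher as well, by 5.93 ± 0.24 and 2.76 ± 0.16 on the log2 scale.

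More matrix genes were lower than higher in M2, and the type IV collagen genes parted. Of 15 collagen genes tested, 6 were higher, 8 lower and 1 did not pass, with a median of -1.40. Col4a1, which forms the common basement membrane chain with Col4a2, had 0.00946 and 0.00916 RPKM in M2, against 65.0 and 58.5 RPKM in Py2T LT. Col4a5, a chain of another type IV network, had 16.5 and 14.7 RPKM in M2, against 1.95 and 2.55 RPKM in Py2T LT, a log2 difference of 2.53 ± 0.15, and Col4a6 was higher by 2.31 ± 0.15 on the log2 scale. The type V collagen genes Col5a1 and Col5a3 were lower, with log2 differences of -4.60 ± 0.14 and -4.78 ± 0.14. Of 24 matrix glycoprotein and cross-linking genes, 8 rose, 13 fell and 3 missed the threshold, with a median of -0.56. Tenascin C (Tnc) had 108 and 101 RPKM in M2, against 758 and 757 RPKM in Py2T LT, and fibronectin (Fn1) had 913 and 827 RPKM in M2, against 1561 and 1469 RPKM in Py2T LT. Lama5, a laminin chain of epithelial basement membrane, and Spp1, osteopontin, were higher by 3.86 ± 0.22 and 2.00 ± 0.13 on the log2 scale.

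Integrins and proteases followed a similar split. Of 12 integrin subunits tested, 4 were higher, 6 lower and 2 did not pass. The collagen receptor subunit Itga2 and the vitronectin receptor subunit Itgb3 were lower, with log2 differences of -4.45 ± 0.32 and -5.15 ± 0.15, while the laminin receptor subunits Itga6 and Itga3 were higher by 1.30 ± 0.15 and 0.93 ± 0.10 on the log2 scale. Of 25 protease and inhibitor genes, 9 rose, 12 fell and 4 missed the threshold. The plasminogen activators Plau and Plat were lower, with log2 differences of -3.31 and -4.28, and so was their inhibitor Serpinb2, at -6.96, whereas Serpine2, an inhibitor of thrombin and of these activators, was higher by 1.75 ± 0.16 on the log2 scale. Mmp9, gelatinase B, had 0.296 and 0.324 RPKM in M2, against 49.3 and 33.5 RPKM in Py2T LT. The lysosomal protease Ctsl had 1119 and 1053 RPKM in M2, against 323 and 341 RPKM in Py2T LT, a log2 difference of 1.68 ± 0.10.

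Secreted signals differed in both directions. Of 22 chemokine and cytokine genes tested, 12 were higher, 8 lower and 2 did not pass. Il11, a cytokine of the interleukin 6 family that TGF-beta induces in stromal cells, had 3.43 and 3.50 RPKM in M2, against 307 and 208 RPKM in Py2T LT. Csf2, which encodes GM-CSF, had 0.364 and 0.645 RPKM in M2, against 77.4 and 69.0 RPKM in Py2T LT. Cxcl5, a neutrophil chemokine, had 16.5 and 24.9 RPKM in M2, against 0.0351 and 0.135 RPKM in Py2T LT, and Cx3cl1, fractalkine, had 69.3 and 70.2 RPKM in M2, against 6.57 and 5.74 RPKM in Py2T LT. Among 35 receptor tyrosine kinase and ligand genes, 12 rose, 14 fell and 9 missed the threshold. Egfr and Ret were lower, with log2 differences of -2.79 ± 0.15 and -2.97 ± 0.18, and so were the ligands Fgf2 and Vegfc, at -5.02 ± 0.15 and -3.12 ± 0.15. The ErbB ligands Nrg1 and Ereg were higher by 1.67 ± 0.22 and 1.22 ± 0.16 on the log2 scale.

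Axon guidance genes, which also steer epithelial and endothelial cells, had 15 of 30 tested higher in M2, 10 lower and 5 not passed. Ntn1, netrin 1, had 39.3 and 37.3 RPKM in M2, against 0.558 and 0.604 RPKM in Py2T LT, a log2 difference of 5.15 ± 0.11. Sema3a, Slit2 and the Slit receptor Robo1 were higher by 4.02 ± 0.14, 3.61 ± 0.17 and 3.32 ± 0.14 on the log2 scale. The semaphorin receptor Plxna4 was listed at 0 in both M2 libraries, against 10.7 and 10.8 RPKM in Py2T LT. Wnt pathway genes leaned lower, with 13 of 25 tested lower, 6 higher and 6 not passed, and a median of -0.46. Lef1, a nuclear partner of beta-catenin, was listed at 0 in both M2 libraries, against 20.2 and 20.5 RPKM in Py2T LT, and the ligand Wnt5a was lower, with a log2 difference of -2.22 ± 0.17. In the Notch pathway 7 of 12 genes were lower, 3 were higher and 2 did not pass. The ligand Jag1 had 5.46 and 5.00 RPKM in M2, against 82.7 and 74.5 RPKM in Py2T LT, and the target Hes1 was lower, with a log2 difference of -1.70 ± 0.19.

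Transcription factors of body patterning and immediate early response were also mixed. Of 23 HOX and homeobox genes tested, 8 were higher, 12 lower and 3 did not pass. Msx1, a limb and craniofacial homeobox factor, had 9.53 and 11.4 RPKM in M2, against 0.211 and 0.318 RPKM in Py2T LT, while Dlx2 was listed at 0 in both M2 libraries, against 5.39 and 5.24 RPKM in Py2T LT. Of 12 Hedgehog genes 5 rose, 5 fell and 2 missed the threshold. Foxf2, the relative of Foxf1, had 0.979 and 0.896 RPKM in M2, against 13.2 and 12.3 RPKM in Py2T LT, the reverse of Foxf1. AP-1 and immediate early genes leaned lower, with 17 of 35 lower, 8 higher and 10 not passed, and a median of -0.31. Egr3 and Dusp5, both induced through the ERK pathway, were lower, with log2 differences of -3.00 ± 0.18 and -2.27 ± 0.12, whereas the phosphatase gene Dusp1 was higher by 3.03 ± 0.25 on the log2 scale.

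Markers of the mammary lineages went both ways. The 15 basal and myoepithelial markers summed to 184.5 and 171 RPKM in M2, against 66.7 and 61.4 RPKM in Py2T LT, with Itgb4 and Itga6 the main part of that sum in M2. Among the 15, 9 were under 1 RPKM in all 4 libraries, including Krt5, Trp63 and Acta2. Of 6 of these markers tested 3 were higher, 2 lower and 1 did not pass. Procr, the protein C receptor of basal progenitors, was lower, with 13.1 and 12.001 RPKM in M2, against 19.9 and 20.8 RPKM in Py2T LT, and so was Snai2. Krt14, the basal keratin, had 4.15 and 4.52 RPKM in M2, against 4.91 and 2.36 RPKM in Py2T LT, and did not pass. Of 8 luminal markers tested 3 were higher, 4 lower and 1 did not pass. Esr1, the oestrogen receptor, had 2.45 and 2.61 RPKM in M2, against 0.299 and 0.242 RPKM in Py2T LT, and Csn3, kappa casein, had 4.74 and 2.65 RPKM in M2, against 28.6 and 30.3 RPKM in Py2T LT. Aldh1a3, a retinaldehyde dehydrogenase of luminal progenitors, had 0 and 0.0178 RPKM in M2, against 8.15 and 8.18 RPKM in Py2T LT.

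Stress and metabolic genes separated by type. Stress response genes, of the integrated and the unfolded protein pathways, leaned lower in M2, with 21 of 31 tested genes lower, 1 higher and 9 not passed, and a median of -0.79. Mthfd2, a mitochondrial one-carbon enzyme, had 23.04 and 20.7 RPKM in M2, against 158 and 97.6 RPKM in Py2T LT, a log2 difference of -2.51 ± 0.25. The factors Ddit3 and Atf4 were lower, with log2 differences of -2.05 ± 0.14 and -1.05 ± 0.14. Antioxidant and xenobiotic genes leaned higher, with 19 of 32 tested higher, 4 lower and 9 not passed, and a median of 0.54. Nqo1 had 66.3 and 69.6 RPKM in M2, against 0.712 and 1.15 RPKM in Py2T LT. The glutathione transferases Gsta4 and Gstm1 were higher by 4.31 ± 0.31 and 3.11 ± 0.15 on the log2 scale, though near-identical family members may share reads. Glycolysis and hypoxia genes leaned higher too, with 16 of 25 higher, 5 lower and 4 not passed, and a median of 0.55. The annotated 3′ ends of Car9, a surface carbonic anhydrase, and Tpm2 overlap on chromosome 4, and whether counting used the strand is not given, so their reads may be mixed. Car9 had 16.5 and 13.3 RPKM in M2, against 0.327 and 0.228 RPKM in Py2T LT, while Hk2 and the oxygen sensor Egln3 were lower, with log2 differences of -1.11 ± 0.18 and -3.02 ± 0.12. Cholesterol and fatty acid genes had 4 of 30 higher, 11 lower and 15 not passed.

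**Figure D2:**
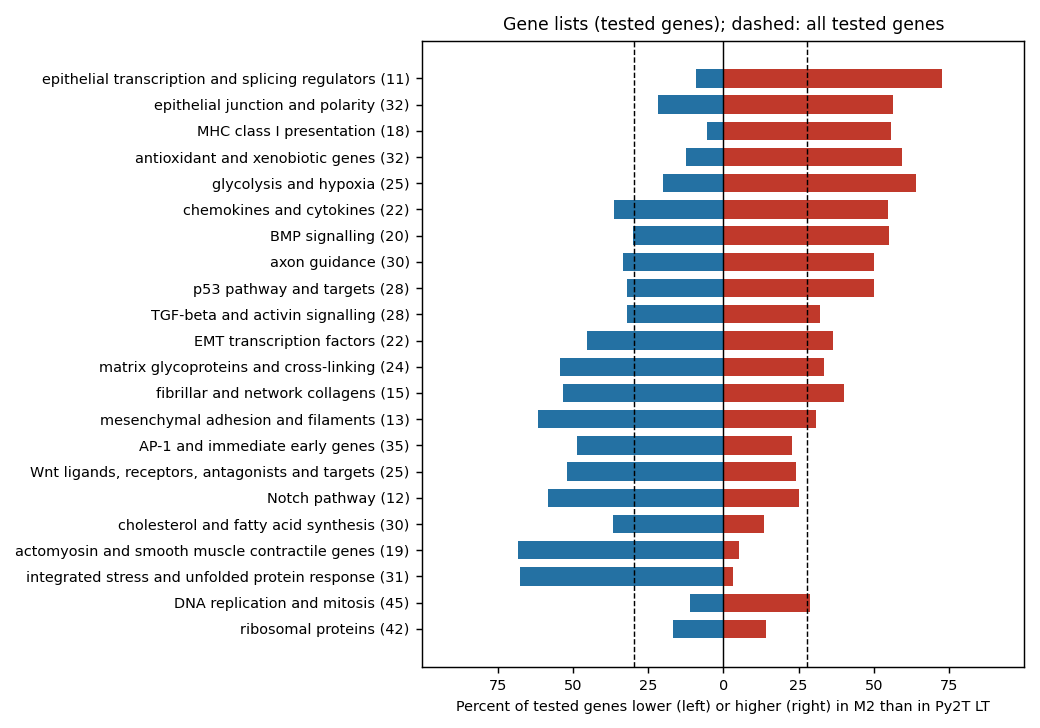
Percent of each list's tested genes, with their number in parentheses, that were lower (blue bars, left) or higher (red bars, right) in M2 than in Py2T LT. The dashed lines mark 29.8% lower and 27.7% higher for all 11717 tested genes, which the stress response list passes on the left and the epithelial, antioxidant and glycolysis lists pass on the right.

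Antigen presentation genes of MHC class I leaned higher in M2, with 10 of 18 tested higher, 1 lower and 7 not passed, and a median of 0.53. H2-M3 had 12.8 and 13.98 RPKM in M2, against 3.31 and 3.22 RPKM in Py2T LT, a log2 difference of 1.86 ± 0.12. The classical gene H2-D1 was the exception and was lower, with a log2 difference of -0.49 ± 0.12. It missed the threshold without M2 replicate 2 (adjusted p = 0.0662) or Py2T LT replicate 2 (adjusted p = 0.0644). Reads of the closely related H2 genes may be assigned to more than one of them. Of 22 interferon-stimulated genes 9 rose, 5 fell and 8 missed the threshold, with Ifitm3 higher by 1.31 ± 0.17 on the log2 scale and Oasl2 lower, with a log2 difference of -2.84 ± 0.13.

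Cell cycle inhibitors of the Cdkn2a and Cdkn2b locus were at or near 0 in M2. Cdkn2a, which encodes p16 and p19Arf, had 0 and 0.0533 RPKM in M2, against 65.5 and 53.5 RPKM in Py2T LT, and Cdkn2b, which encodes p15, was listed at 0 in both M2 libraries, against 45.1 and 47.9 RPKM in Py2T LT. Mdm2, the ubiquitin ligase of p53, had 54.2 and 51.8 RPKM in M2, against 669.6 and 664 RPKM in Py2T LT, a log2 difference of -3.67 ± 0.11. Of 28 p53 pathway genes 14 rose, 9 fell and 5 missed the threshold, while Perp and Ccng1 were higher by 2.04 ± 0.11 and 1.95 ± 0.10 on the log2 scale. Cdkn1a, a p53 target that arrests the cycle, had 94.3 and 84.8 RPKM in M2, against 82.2 and 65.8 RPKM in Py2T LT, and did not pass (adjusted p = 0.12, and 0.0433 without Py2T LT replicate 1). Ccnd1 and Cdk4, which drive G1, were lower, with log2 differences of -1.01 ± 0.10 and -1.04 ± 0.10. Of 28 apoptosis regulators 10 rose, 8 fell and 10 missed the threshold, which is 64.3% called, near the 57.5% of all tested genes. Bmf, a death-promoting protein, was higher by 2.99 ± 0.19 on the log2 scale. Of 45 replication and mitosis genes 13 were higher, 5 lower and 27 did not pass, which is 40.0% called, against 57.5% of all tested genes.

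The genes of the proteins that the series is about differed in both directions, with Hdac1 the largest of those given here. Tet2, which oxidises 5-methylcytosine, had 2.62 and 2.82 RPKM in M2, against 1.42 and 1.52 RPKM in Py2T LT, a log2 difference of 0.68 ± 0.21 with an adjusted p of 0.023. That call was lost without any 1 of the 4 libraries, with adjusted p of 0.0633 without M2 replicate 1, 0.0976 without M2 replicate 2, 0.105 without Py2T LT replicate 1 and 0.0758 without Py2T LT replicate 2. Mbd3, a subunit of the NuRD repressor, had 82.4 and 79.9 RPKM in M2, against 135 and 129 RPKM in Py2T LT, a log2 difference of -0.73 ± 0.13. The deacetylase Hdac1 had 15.9 and 14.4 RPKM in M2, against 5.64 and 5.44 RPKM in Py2T LT, and was higher by 1.34 ± 0.12 on the log2 scale. Hdac2 was lower, with a log2 difference of -0.47 ± 0.12, and missed the threshold without M2 replicate 1 (adjusted p = 0.0579) or Py2T LT replicate 2 (adjusted p = 0.0705). Of 24 tested NuRD and deacetylase genes 5 rose, 7 fell and 12 missed the threshold, which is 50% called, against 57.5% of all tested genes.

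What was particular to M2 was taken from the difference between M2 and the mean of M1 and M3 in the same fit. With limma, 2872 of 11717 genes passed, which is 24.5%, with 1372 (11.7%) higher in M2 and 1500 (12.8%) lower. This count moved with single libraries and was 4384 without M1 replicate 2, 1050 without M2 replicate 1 and 1005 without M2 replicate 2. Cyba, a membrane subunit of NADPH oxidase that accompanies superoxide production, had 36.1 and 33.2 RPKM in M2 and was listed at 0 in all 4 libraries of M1 and M3 and in both of Py2T LT. Brinp3 had 63.9 and 86.7 RPKM in M2, against 0.485 to 2.28 RPKM in the libraries of M1 and M3, a log2 difference of 5.65 ± 0.42. Sod3 was also higher than in the other clones, which had 28.8 to 67.9 RPKM, by 1.96 ± 0.17 on the log2 scale. Cck, the peptide cholecystokinin, and Armcx2, an armadillo-repeat gene of the X chromosome, were higher than in M1 and M3 by 3.79 ± 0.20 and 3.77 ± 0.11 on the log2 scale. Ptges, which makes prostaglandin E2, had 9.89 and 10.9 RPKM in M2, against 1.01 to 2.06 RPKM in M1 and M3 and 0.128 and 0.138 RPKM in Py2T LT.

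Other genes were lower in M2 than in M1 and M3. Podxl, a sialomucin of apical membranes, had 0.423 and 0.489 RPKM in M2, against 14.2 to 23.9 RPKM in M1 and M3, a log2 difference of -4.30 ± 0.12. It had 0.895 and 0.797 RPKM in Py2T LT, so that M1 and M3 were the groups with much of it. Cldn6 had 11.5 and 11.8 RPKM in M2, against 173 to 248 RPKM in M1 and M3, a log2 difference of -4.06 ± 0.10, so that M2 stood between the other clones and Py2T LT. Egln3 and Myo5c, an epithelial myosin motor, were lower, with log2 differences of -3.49 ± 0.10 and -3.50 ± 0.13, and both were lower in M2 than in Py2T LT too. Twist2 was lower, with a log2 difference of -2.24 ± 0.13, with 1.93 to 2.50 RPKM in M1 and M3. Hoxa10, a positional homeobox gene, had 0.0398 and 0.0386 RPKM in M2, against 1.63 to 5.93 RPKM in M1 and M3, and was listed at 0 in both Py2T LT libraries.

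**Figure D3:**
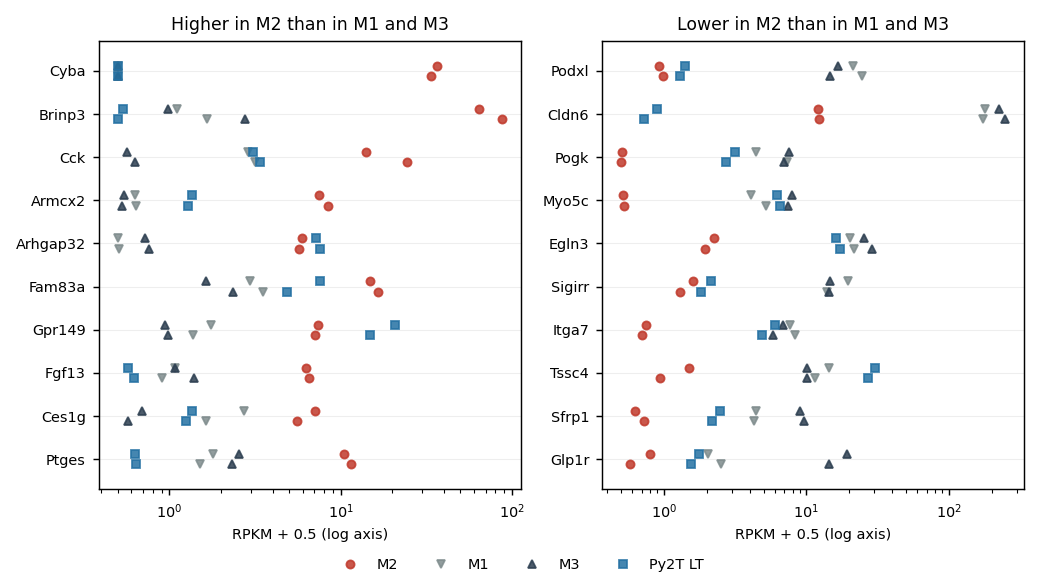
RPKM + 0.5 on a log axis, with 1 point per library, for the 10 genes with the largest rises (left) and falls (right) in M2 against the mean of M1 and M3, in M2, M1, M3 and Py2T LT. Both M2 libraries lie outside the range of all 4 libraries of M1 and M3 for each gene, which the rule for choosing these genes required.

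Several epithelial genes were higher in M2 than in the other clones, but more junction and polarity genes were lower than higher. Cdh1 had 6.01 and 4.27 RPKM in M2, against 1.05 to 1.80 RPKM in M1 and M3, a log2 difference of 1.58 ± 0.17 with an adjusted p of 0.00044. Esrp1 and Esrp2 were higher by 1.80 ± 0.14 and 1.12 ± 0.16 on the log2 scale. Epcam went the other way against the mean of M1 and M3, with a log2 difference of -0.90 ± 0.17. M3 was the clone with more of it, at 32.0 and 32.7 RPKM. M2, at 11.9 and 8.23 RPKM, overlapped M1, at 11.7 and 10.4 RPKM. Of the 32 junction and polarity genes 6 were higher than in M1 and M3, 10 were lower and 16 did not pass, with a median of -0.19. Cldn6 and Cldn4 were among the lower genes.

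List counts against M1 and M3 are read beside 11.7% higher and 12.8% lower among all tested genes. Of 30 cholesterol and fatty acid genes 11 were higher in M2 than in M1 and M3, 1 was lower and 18 did not pass, with a median of 0.33. The sterol enzyme Msmo1 had 74.9 and 67.1 RPKM in M2, against 22.3 to 34.9 RPKM in M1 and M3 and 56.8 and 63.1 RPKM in Py2T LT. Interferon-stimulated genes had 1 of 22 higher, 8 lower and 13 not passed, and MHC class I genes had 1 of 18 higher, 6 lower and 11 not passed. The immunoproteasome subunit Psmb8 had 0.154 and 0.248 RPKM in M2, against 2.20 to 3.44 RPKM in M1 and M3, a log2 difference of -2.12 ± 0.15. It was also near 0 in Py2T LT, at 0.0951 and 0.137 RPKM. Lgals3bp, an interferon-responsive glycoprotein, was lower, with a log2 difference of -1.75 ± 0.12. In the matrix Timp3, a metalloproteinase inhibitor, had 160.0 and 147 RPKM in M2, against 29.3 to 39.2 RPKM in M1 and M3 and 278 and 236 RPKM in Py2T LT. Col12a1 and Tnc were higher than in M1 and M3 by 1.79 ± 0.16 and 1.64 ± 0.19, and Wnt5a by 1.96 ± 0.14, on the log2 scale.

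Differences between M2 and Py2T LT were uneven along the genome. On chromosome 4, 56.9% of 740 tested genes were higher in M2 and 11.2% were lower, with a median difference of 0.49. Chromosome 17 had 48.4% higher and 11.97% lower, with a median of 0.36. On chromosome 10, 64.6% of 570 genes were lower and 10.2% were higher, with a median of -0.59, and on chromosome 14, 60.2% of 384 genes were lower and 10.7% were higher, with a median of -0.55. M1 and M3 share the Py2T LT libraries with M2 in such comparisons. Their own medians were 0.35 (M1) and 0.37 (M3) on chromosome 4 and -0.51 (M1) and -0.21 (M3) on chromosome 10. On chromosome 17 they were 0.47 (M1) and 0.43 (M3) and on chromosome 14 -0.59 (M1) and -0.61 (M3), farther from 0 than in M2. Against M1 and M3, 26.3% of the genes of chromosome 10 were lower in M2 and 3.68% were higher, with a median of -0.17. The largest shifts against M1 and M3 lay elsewhere. Chromosome 8 had 38.1% of 637 genes higher in M2 than in M1 and M3 and 3.77% lower, and chromosome 9 had 35.3% of 649 higher and 5.55% lower. Chromosome 19 had 41.4% of 413 genes lower and 3.39% higher, and chromosome 13 had 33.0% of 427 lower and 3.28% higher. The medians of M2 against the mean of M1 and M3 were 0.28, 0.22, -0.31 and -0.26 on chromosomes 8, 9, 19 and 13, against -0.0009 over all genes.

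**Figure D4:**
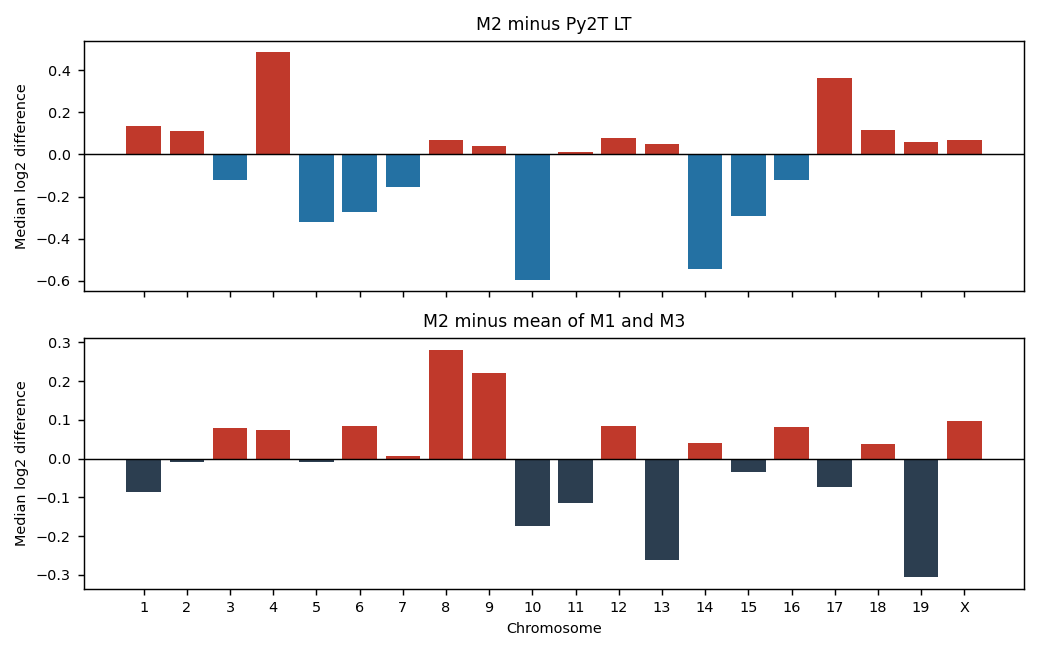
Median log2 difference of the tested genes of each chromosome, in M2 minus Py2T LT (top) and in M2 minus the mean of M1 and M3 (bottom). Chromosomes 4 and 17 stand highest and 10 and 14 lowest in the top panel, and chromosomes 8 and 9 highest and 19 and 13 lowest in the bottom panel.

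Runs of neighbouring genes that differed in the same direction were counted. Among 11691 placed genes there were 50 runs of at least 6 consecutive tested genes all higher in M2 (374 genes) and 58 runs all lower (486 genes). They include 22 gamma protocadherin genes and 8 Ugt1a genes, whose annotated spans overlap because the members share exons, so their values are not separate. With overlapping genes counted once, an alternative chosen after the data were seen, there were 42 runs of higher genes (313 genes) and 53 of lower genes (430.0 genes). The 860 genes in runs were 297 without M2 replicate 1, 380.0 without M2 replicate 2, 382 without Py2T LT replicate 1 and 431 without Py2T LT replicate 2, and 321 when no filter on low values was used. The longest run of higher genes lay on chromosome 4 from Tle1 to Haus6 (chr4:72109945-86612075, RefSeq on GRCm38.p6), with 15 genes and a median difference of 1.42 from Py2T LT. Of these, 13 were also higher than in M1 and M3, and the medians of M1 and M3 against Py2T LT were 0.07 and 0.26. The same pattern went on past the run to Mtap (chr4:89137370-89181090), a stretch delimited after its values were seen. From Tle1 to Mtap, 21 of 25 tested genes were higher than in Py2T LT and 21 were higher than in M1 and M3, with medians of 1.36 and 1.29, and none was lower in either comparison.

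Within this stretch Rraga, a GTPase of amino acid sensing, had 175 RPKM in both M2 libraries, against 58.6 RPKM in both Py2T LT libraries and 65.1 to 69.5 RPKM in M1 and M3. Mtap, a methylthioadenosine salvage enzyme, had 234 and 239 RPKM in M2, against 93.2 and 96.8 RPKM in Py2T LT and 73.6 to 84.4 RPKM in M1 and M3. Psip1, a chromatin reader, and Nfib, a nuclear factor I gene, were higher than in Py2T LT by 1.36 ± 0.12 and 1.60 ± 0.12 on the log2 scale. Directly beyond Mtap, Cdkn2a and Cdkn2b are the next tested genes and were at or near 0 in M2. From Cdkn2a to Dmrta1, again delimited after its values were seen, all 3 tested genes were lower than in Py2T LT and none passed the test against M1 and M3. Near the start of chromosome 4 levels in M2 were lower from Tmem68 to Chd7 (chr4:3549041-8868449), also delimited after its values were seen. There 12 of 14 tested genes were lower than in Py2T LT and 11 were lower than in M1 and M3, with medians of -1.31 and -0.70. The other clones were lower than Py2T LT there too, with medians of -0.56 (M1) and -0.48 (M3). Rab2a, a GTPase of the secretory pathway in that stretch, had 31.2 and 29.6 RPKM in M2, against 74.5 and 73.5 RPKM in Py2T LT and 49.1 to 69.8 RPKM in M1 and M3.

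**Figure D5:**
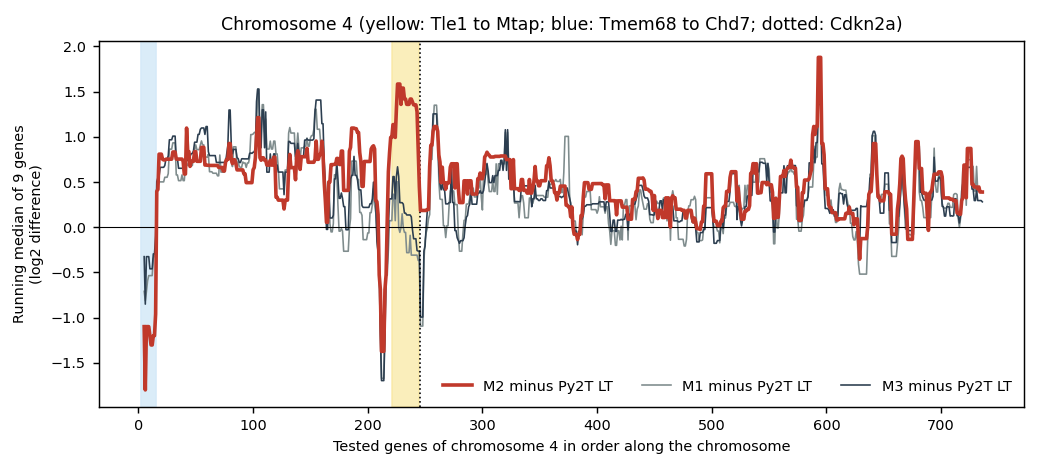
Running median of the log2 difference from Py2T LT over 9 consecutive tested genes of chromosome 4, for M2 (thick red line), M1 and M3 (thin lines). From Tle1 to Mtap (yellow) M2 lies above M1 and M3 (medians 1.36, -0.06 and 0.11), and from Tmem68 to Chd7 (blue) M2 lies lowest.

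On chromosome 10 the longest run of lower genes reached from Fam174c to Mob3a (chr10:80172944-80701820), with 25 genes (22 with overlapping genes counted once), among them Mbd3 and Tcf3, and a median of -0.92. Of these, 17 were also lower than in M1 and M3. The medians of M1 and M3 against Py2T LT were -0.53 and -0.44 in this run. Tcf3, a helix-loop-helix factor that binds E-boxes, had 40.8 and 37.96 RPKM in M2, against 63.4 and 55.4 RPKM in Py2T LT and 60.5 to 74.95 RPKM in M1 and M3. The run from Yeats4 to Hmga2 (chr10:117215141-120476469) held Mdm2 and 14 other genes, had a median of -2.94, and had 0 genes called in the same direction against M1 and M3. Hmga2, an oncofetal chromatin protein at its end, had 248 and 232 RPKM in M2, against 380.1 and 407 RPKM in Py2T LT.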

How the data were processed

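RNA of M2 and Py2T LT cells from 2 independent experiments was made into libraries with a stranded total RNA kit, per the labels' protocols. The submitters' processing notes name STAR and the mouse build mm10. Versions, the gene counting and its use of strand are not given in the sources used here. The deposited values are RPKM per gene, as the authors computed them. Of 19311 gene IDs 99.7% matched the RefSeq table of GRCm38.p6, used for names, positions and promoters. RPKM was divided by factors from a trimmed mean of log ratios (trims of 0.3 and 0.05), and log2(RPKM + 0.5) was fitted over 8 libraries with limma 3.58.1 in R 4.3.3, with mean trend, robust moderation and Benjamini-Hochberg adjustment over all 11717 tested genes at 0.05. The script was tested on simulated data.

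The text names genes by rule, namely the 12 largest rises and falls against Py2T LT and the 10 against M1 and M3, up to 4 a direction per list, and the genes of each run of neighbours. For the largest rises and falls, the M2 libraries had to lie beyond all libraries compared, with a minimum level in the higher group. Some genes so named are not reported here. The members, lists and tests were chosen with earlier results of these data known. Depth was estimated from the smallest RPKM steps. Alternatives covered the scaling, pseudocount, filter, moderation, samples fitted, replicate block and each library left out. Libraries with the inhibitor were not analysed here.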

Additional observations from a re-analysis of the deposited data

Results flagged for a closer look

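Results are given here because M2 differed from the mean of the other clones, by the limma term for M2 minus the mean of M1 and M3. That term can pass where M2 differs from M1 alone or from M3 alone. Epcam, Snai1, Hmga2 and Rpl26 each had an M2 library within the range of the M1 and M3 libraries. Rpl26 had 0.576 and 0.446 RPKM in M2, against 0.506 and 0.512 RPKM in M3 and 1.14 and 1.36 RPKM in M1. The term passed for 2872 genes, and each value below is its log2 difference. A positive value means higher in M2 than in the mean of M1 and M3. Py2T LT cancels out of the term, so the values do not rest on that group, though the spread behind the calls does. The cause of these values was not tested.

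Among junction, surface and epithelial genes, the differences were Cdh1 1.58, Esrp1 1.80, Esrp2 1.12, Itgb4 0.68, Procr 1.20, Podxl -4.30, Cldn6 -4.06, Cldn4 -1.15, Epcam -0.90, Myo5c -3.50 and Jup -0.40. Among mesenchymal factors and filaments they were Cdh2 0.40, Foxf1 0.91, Foxf2 -1.80, Twist2 -2.24, Snai1 -0.64, Snai2 0.60, Tpm2 -0.72, Hoxa10 -2.76, Hmga2 0.44 and Tcf3 -0.72. In the matrix, its receptors and its proteases they were Timp3 2.08, Col12a1 1.79, Col5a3 1.34, Tnc 1.64, Spp1 0.50, Itga7 -3.29, Itga3 -0.28, Serpine2 1.35 and Plau -0.54. M2 thus had more Cdh1, Timp3 and Col12a1 message than M1 and M3 and less Podxl, Cldn6 and Itga7 message.

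In TGF-beta, activin and BMP signalling the differences were Tgfbr3 1.35, Tgfbr2 -0.29, Inhba 1.42, Tgfbi -1.77, Bmp4 -0.50, Bmper 1.21, Grem1 0.67, Id3 -0.89 and Id4 1.26. In other signalling they were Wnt5a 1.96, Sfrp1 -3.23, Jag1 1.14, Egfr 1.21, Ereg 2.00, Nrg1 1.08, Ret 1.19, Fgf13 2.55, Robo1 1.41, Slit2 1.47, Cxcl5 1.41, Cx3cl1 -0.52, Egr3 -0.73, Sigirr -3.42, Gpr149 2.57, Glp1r -3.16, Cck 3.79 and Arhgap32 3.25. For Arhgap32 M1 and M3 were the groups with little of it, as its level in M2 was near that of Py2T LT.

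In metabolism, stress and immunity the differences were Cyba 6.13, Sod3 1.96, Ptges 2.44, Car9 2.20, Egln3 -3.49, Msmo1 1.33, Ces1g 2.45, Ddit3 -0.41, Psmb8 -2.12 and Lgals3bp -1.75. In the cell cycle and cell death they were Cdk4 -0.63 and Ccng1 0.97. Along chromosome 4 they were Rraga 1.39, Mtap 1.59, Haus6 1.52, Psip1 1.13, Nfib 0.95, Tle1 0.57, Tmem68 -0.55, Rab2a -0.89 and Chd7 -1.16, and in the run on chromosome 10 Fam174c -0.62 and Mob3a -0.39. The others were Armcx2 3.77, Brinp3 5.65, Fam83a 2.64, Pogk -3.66, Rpl26 -0.39 and Tssc4 -3.27. Cyba was listed at 0 in all libraries of M1 and M3, so the size of its value is set by the 0.5 added before the log. The reads of Rpl26 may be shared with near-identical copies.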

How the results depend on the processing

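The count of 6732 genes in M2 against Py2T LT lay between 5504 and 8014 under other scalings, pseudocounts, filters, moderation and choices of samples, and between 5003 and 7712 with 1 library left out. Against M1 and M3 the 2872 genes were 2396 to 2899 under those settings, but with 1 library left out they lay between 1005 (without M2 replicate 2) and 4384 (without M1 replicate 2). The 860 genes in runs of neighbours were 321 with no filter and 1416 when only the groups compared were fitted, and lay between 297 (without M2 replicate 1) and 1278 (without M1 replicate 1 or 2) with 1 library left out. With no filter more genes near 0 entered, and the medians of chromosomes 4, 17, 10 and 14 against Py2T LT were 0.27, 0.16, -0.31 and -0.32. The causes of these moves were not tested, beyond the fewer libraries or added genes themselves. Krt14, which did not pass, changed sign between -0.19 without Py2T LT replicate 2 and 0.73 without Py2T LT replicate 1. Krt18 lost its call with any 1 library of M2, M3 or Py2T LT left out, with adjusted p of 0.0702 to 0.191, and also with no filter (0.0722) and with neither trend nor robust moderation (0.0578). With values as deposited the split of 6691 calls was 3414 higher and 3277 lower.

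With the replicate number as a block the counts were 6621 and 2651, and Epcam passed with an adjusted p of 0.0213. Same-numbered libraries did not deviate together, with a correlation of replicate differences of 0.03 between M2 and Py2T LT, 0.13 between M2 and M1 and -0.03 between M2 and M3, so the numbers were not taken as pairs. With 2 libraries a group, leaving out 1 assumes that the lone library varies like the other groups. Depth limits genes near the floor of 3 reads, where a listed 0 is no proof of absence.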
